A study of Mus musculus with 6 samples.

Results

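The genes described here encode the machinery of autophagy and mitophagy, 39 of the 24537 genes in a table of RPKM values from murine brown adipocytes. They were chosen by symbol from a list of the core autophagy proteins, from the kinases that start the process to the receptors that select cargo and the proteins that mark damaged mitochondria, and measured values were not used by that rule. The list itself was drawn up with earlier results of these data known. All 39 were found and all 39 were expressed highly enough to be tested. The cells were an immortalized line of brown preadipocytes from mouse, differentiated in culture for 6 days into lipid-storing adipocytes. In 3 libraries the cells had been given vehicle, DMSO and ethanol (CTL), and in 3 libraries they had been given 4 mM 4-chlorobenzoic acid (4CBA), which inhibits COQ2, an enzyme of coenzyme Q (CoQ) synthesis. Treatment started on day 4 and lasted 48 h per the sample labels, with the medium refreshed after 24 h, whereas the study describes a shorter treatment for the sequenced cells. No allele or transgene distinguishes the groups, and all libraries come from 1 cell line. The methods of the study also state that replicates were pooled to generate total RNA, so p-values here reflect variation among the 6 libraries, part or all of which may be technical.

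In autophagy a double membrane, the phagophore, grows around cytoplasm or an organelle, closes and fuses with a lysosome, where the content is degraded. A kinase complex built on ULK1 or ULK2 starts the process, a lipid kinase complex built on PIK3C3 marks the membrane with phosphatidylinositol 3-phosphate, and a pair of ubiquitin-like conjugation systems attaches ATG8 proteins (the LC3 and GABARAP families) to it. In mitophagy the kinase PINK1 and the ubiquitin ligase Parkin mark damaged mitochondria, and receptors that bind both cargo and ATG8 proteins bring them to the phagophore. In thermogenic fat, mitophagy is known for removing mitochondria when thermogenic adipocytes lose their brown features.

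Gabarapl1, Ulk1, Uvrag and Map1lc3a had the largest increases among the members, and Atg101 had the largest decrease. Promoters of 4 of them are shown so that these members can be placed in the genome, and none is shown for Map1lc3a. Each is given 5′ to 3′ from 250 bases before to 50 bases after the start site of RefSeq in build GRCm38.p6, with the 50 transcribed bases in capitals.
Gabarapl1 (chr6:129532942-129533241, forward strand): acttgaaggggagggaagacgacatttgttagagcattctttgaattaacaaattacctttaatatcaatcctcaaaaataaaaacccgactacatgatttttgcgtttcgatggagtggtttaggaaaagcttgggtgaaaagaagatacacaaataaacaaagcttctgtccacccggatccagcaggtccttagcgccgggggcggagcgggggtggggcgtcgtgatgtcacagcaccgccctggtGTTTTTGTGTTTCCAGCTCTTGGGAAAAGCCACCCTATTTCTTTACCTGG
Ulk1 (chr5:110810032-110810331, reverse strand): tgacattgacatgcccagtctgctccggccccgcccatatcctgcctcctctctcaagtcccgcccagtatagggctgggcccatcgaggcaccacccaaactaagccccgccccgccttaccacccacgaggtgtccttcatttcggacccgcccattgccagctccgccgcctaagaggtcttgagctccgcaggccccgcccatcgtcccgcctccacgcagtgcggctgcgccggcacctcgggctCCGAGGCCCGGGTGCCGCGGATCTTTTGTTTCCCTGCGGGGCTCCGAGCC
Uvrag (chr7:99141095-99141394, reverse strand): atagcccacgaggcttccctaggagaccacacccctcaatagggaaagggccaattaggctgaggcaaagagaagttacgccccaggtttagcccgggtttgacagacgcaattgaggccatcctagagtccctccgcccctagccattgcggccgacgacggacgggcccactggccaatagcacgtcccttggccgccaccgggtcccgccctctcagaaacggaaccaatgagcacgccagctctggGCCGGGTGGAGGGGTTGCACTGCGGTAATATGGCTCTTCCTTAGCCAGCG
Atg101 (chr15:101284051-101284350, forward strand): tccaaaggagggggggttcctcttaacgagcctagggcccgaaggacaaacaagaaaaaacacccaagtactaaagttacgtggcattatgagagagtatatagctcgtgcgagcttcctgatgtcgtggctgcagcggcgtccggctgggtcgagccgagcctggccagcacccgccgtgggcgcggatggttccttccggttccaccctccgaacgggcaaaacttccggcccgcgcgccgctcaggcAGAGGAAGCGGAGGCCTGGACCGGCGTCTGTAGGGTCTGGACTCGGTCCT

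Across the 39 members, 19 were higher with 4CBA, 5 were lower and 15 did not pass the threshold, an adjusted p under 0.05 in a limma fit over all 12659 genes tested. That is 48.7% of members higher and 12.8% lower. Treatment moved much of the transcriptome, and over all genes tested 38.4% were higher and 30.0% were lower, 68.4% in either direction, against 61.5% of members. The median log2 fold change, taken throughout on log2(RPKM + 1), was 0.17 over members and 0.06 over all genes tested. Scaling the libraries to a common median changed this split. It moved the median of all genes to -0.04, with 15 members higher and 9 lower, and over all genes the calls turned from 4860 higher and 3804 lower to 3907 higher and 4767 lower. The share of calls that were higher thus went from 79.2% to 62.5% for members and from 56.1% to 45.0% for all genes. Most member changes were small. A mean RPKM at least 1.5-fold higher was seen in 8 called members (20.5%, against 18.4% of all genes) and at least 1.5-fold lower in 1 (2.56%, against 17.4%). The 3 CTL and the 3 4CBA libraries did not overlap in 22 members that were higher and 4 that were lower, where the background was 40.9% and 31.8%. In a test against a change of 1.2-fold, chosen after seeing the data, 10 members were higher and 1 was lower, against 21.4% and 17.7% of all genes. The count of 5 lower members was 3 without CTL replicate 3, without 4CBA replicate 2 or without 4CBA replicate 3.

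**Figure D1:**
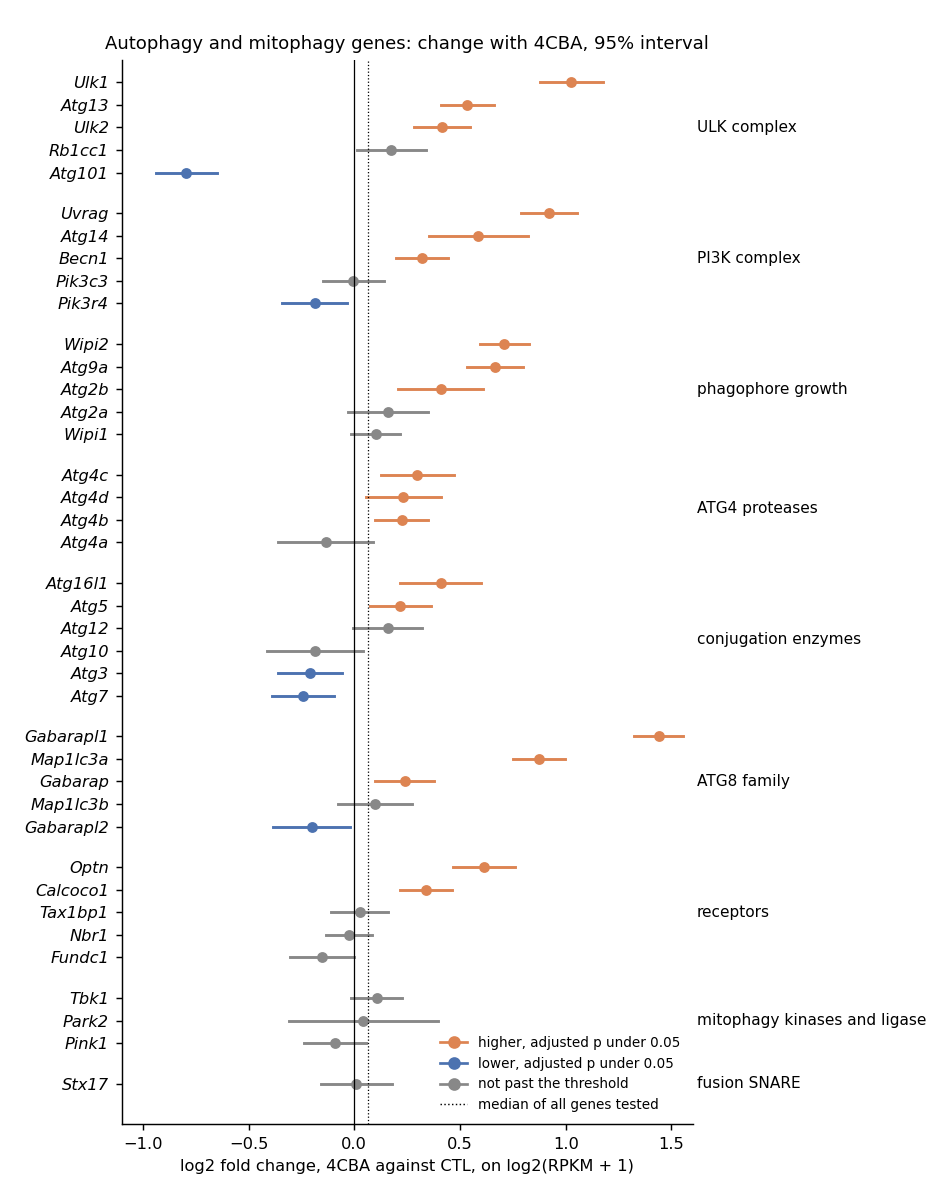
Log2 fold change of each of the 39 members (point) with its 95% interval (line) from the limma fit, 4CBA against CTL, 3 libraries per group, arranged by role. Gabarapl1 at 1.44 and Atg101 at -0.79 are the ends of the range, and the mitophagy kinases, Park2 and Stx17 lie near 0.

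Within the ULK kinase complex, Ulk1, Ulk2 and Atg13 rose and Atg101 fell. Ulk1, the kinase that starts autophagy, had RPKM of 12.1, 11.2 and 11.5 in the CTL libraries and 23.1, 24.1 and 26.9 in the 4CBA libraries. The groups were far apart, with means of 11.6 ± 0.454 and 24.7 ± 1.94 (SD, n = 3), a 2.13-fold increase (log2 fold change 1.03, SE 0.0673, limma adjusted p = 7.6e-08). Its paralog Ulk2 rose 1.36-fold (adjusted p = 7.4e-05), and Atg13, the subunit that binds the kinase to the complex, rose 1.48-fold (adjusted p = 5.4e-06). Atg101, the partner that stabilizes ATG13, was the most abundant of the 5 transcripts, with RPKM of 111, 103 and 97.2 in CTL and 60.1, 62.9 and 55 in 4CBA. It was the only member with a fall of at least 1.5-fold, from 104 ± 6.89 to 59.4 ± 4.03 (1.75-fold lower, log2 fold change -0.79, SE 0.0658, adjusted p = 6.0e-07). The scaffold Rb1cc1, also known as FIP200, was at 7.41 in CTL and 8.5 in 4CBA and did not pass the threshold (adjusted p = 0.056), although it was called higher without 4CBA replicate 3 (adjusted p = 0.024).

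The lipid kinase complex exists in forms that share Becn1, Pik3c3 and Pik3r4 and differ in Atg14, which directs it to autophagy, or Uvrag, which directs it to endosomes. Both of these specific subunits rose. Uvrag had RPKM of 10.7, 9.79 and 9.69 in CTL and 19.8, 19.8 and 20.1 in 4CBA, a spread in the treated libraries of under 1 RPKM. Its mean rose 1.98-fold, from 10.0 ± 0.53 to 19.9 ± 0.172 (SD, n = 3, log2 fold change 0.92, limma adjusted p = 7.4e-08). Atg14 was less abundant and rose 1.61-fold, from 4.26 ± 0.803 to 6.85 ± 0.403 (adjusted p = 0.00041). Of the shared subunits, the catalytic Pik3c3 was level, at 9.48 in CTL and 9.46 in 4CBA (95% interval of the log2 difference -0.15 to 0.14). The regulatory subunit Pik3r4 was at 8.33, 8.74 and 8.62 in CTL and 7.34, 6.97 and 7.90 in 4CBA. It was called lower by a small margin (log2 fold change -0.19, adjusted p = 0.032). Becn1 rose 1.25-fold (adjusted p = 0.00028), but 51.5% of its exon bases lie opposite exons of Cntd1. Cntd1 was also higher, 1.28-fold, and the strand setting of the counting is unknown here, so reads of the pair cannot be told apart. Pik3r4 lost its call without CTL replicate 2 or 3 or without 4CBA replicate 1 or 2 (adjusted p between 0.069 and 0.13).

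Among proteins that extend the phagophore, Wipi2, Atg9a and Atg2b rose. Wipi2, a reader of phosphatidylinositol 3-phosphate that recruits the conjugation machinery, had RPKM of 29.8, 28.6 and 27.7 in CTL and 46.5, 47.5 and 48.8 in 4CBA. This was a 1.66-fold increase (log2 fold change 0.71, limma adjusted p = 2.4e-07), while its paralog Wipi1 went from 18.8 to 20.2 and did not pass (adjusted p = 0.11). Atg9a, the transmembrane scramblase of autophagy vesicles, rose 1.622-fold, from 16.9 ± 0.402 to 27.5 ± 1.56 (adjusted p = 1.2e-06), and 48.5% of its exon bases are shared on the same strand with the transcript Gm29253. Of the lipid-transfer proteins, Atg2b rose 1.42-fold (adjusted p = 0.0017) and Atg2a went from 8.35 to 9.49 without passing (adjusted p = 0.12), but was called higher without 4CBA replicate 1 (adjusted p = 0.034).

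**Figure D2:**
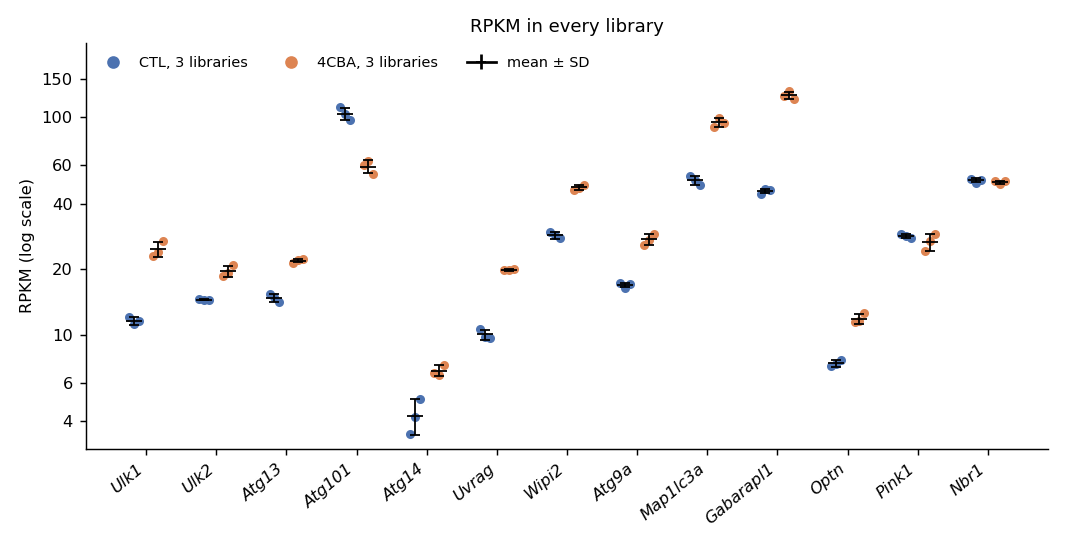
RPKM of 13 members in every library on a log axis, with the mean and SD of each group of 3. Ulk1, Uvrag and Gabarapl1 separate by about 2-fold or more, Atg101 moves the opposite way, and Pink1 and Nbr1 overlap between the groups.

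The ATG4 proteases trim ATG8 proteins before conjugation and release them afterwards, and their changes were small. Atg4c had RPKM of 5.13, 4.64 and 4.44 in CTL and 6.21, 5.90 and 6.02 in 4CBA, a 1.28-fold increase (limma adjusted p = 0.0051). Atg4b rose 1.18-fold (adjusted p = 0.0040) and Atg4d 1.19-fold (adjusted p = 0.024), and both calls were lost after scaling to a common median. The call of Atg4d was also lost without CTL replicate 3, without 4CBA replicate 2 or without 4CBA replicate 3 (adjusted p between 0.058 and 0.099), and with no filter on low values (0.057). Atg4d shares 23.6% of its exon bases with Kri1 on the opposite strand, and Kri1 was 1.49-fold higher. Atg4a was at 2.78 in CTL and 2.43 in 4CBA and did not pass (adjusted p = 0.26). Its value is uncertain because a copy, Atg4a-ps, matches 96.0% of the transcript at 99.3% identity.

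The conjugation enzymes did not move together. Of the 6, Atg16l1 and Atg5 rose, Atg7 and Atg3 fell, and Atg10 and Atg12 did not pass. Atg16l1, which places the conjugation complex on the membrane, had RPKM of 8.60, 9.52 and 10.1 in CTL and 11.5, 14.5 and 12.6 in 4CBA (1.37-fold, limma adjusted p = 0.0013). Atg7, the E1-like enzyme used by both conjugation systems, had 15.7, 14.8 and 14.02 in CTL and 11.6, 12.96 and 12.5 in 4CBA, a 1.199-fold decrease (log2 fold change -0.24, adjusted p = 0.0065). Atg3, the E2-like enzyme for ATG8 proteins, fell 1.16-fold (adjusted p = 0.018). Atg5, which is joined to ATG12, rose 1.18-fold (adjusted p = 0.012). For Atg10, the E2-like enzyme for ATG12, the log2 fold change was -0.19 (adjusted p = 0.13), and for Atg12 it was 0.16 (adjusted p = 0.081). Atg3 lost its call without CTL replicate 1 or 4CBA replicate 3 (adjusted p = 0.083 and 0.069), and Atg5 lost it without 4CBA replicate 1 (adjusted p = 0.0502), after scaling to the same median (0.16) and in the deposited log2 values (0.057). Atg10 gained a call of lower without 4CBA replicate 1 (0.032) and after that scaling (0.030), and Atg12 one of higher without 4CBA replicate 3 (0.016).

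The ATG8 family held the largest change of all members. Gabarapl1 had RPKM of 44.5, 46.7 and 46.3 in CTL and 124.6, 132 and 122 in 4CBA. The groups differed 2.75-fold, from 45.8 ± 1.16 to 126 ± 5.08 (SD, n = 3, log2 fold change 1.44, SE 0.052, limma adjusted p = 4.6e-10), a log2 fold change above that of 97.7% of genes tested. Its exons overlap by 20.7% an opposite-strand transcript, 1700101I11Rik, whose own RPKM was 0.337 in CTL and 0.265 in 4CBA. Map1lc3a rose 1.85-fold, from 51.2 ± 2.39 to 94.6 ± 4.43 (adjusted p = 7.0e-08). The isoform of Map1lc3a behind these RPKM values is annotated as noncoding, and in the deposited log2 values, which use a coding isoform, its log2 fold change was 0.79 (adjusted p = 2.0e-13). Gabarap was the most abundant member, at 261, 257 and 249 RPKM in CTL and 323, 311 and 273 in 4CBA (1.18-fold, adjusted p = 0.0058), and this call was lost when libraries were scaled to the same median.

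Map1lc3b, the form of LC3 most often followed as a marker of autophagosomes, was at 27.3 ± 0.531 in CTL and 29.4 ± 3.76 in 4CBA (limma adjusted p = 0.29). Gabarapl2 had RPKM of 11.3, 9.67 and 12.4 in CTL and 9.14, 9.61 and 9.73 in 4CBA. These groups overlap, and the call of a decrease stood just inside the threshold (log2 fold change -0.20, adjusted p = 0.049). It was lost without any 1 library except CTL replicate 2 (adjusted p between 0.066 and 0.20), and with a pseudocount of 0.1 (0.051), no filter (0.089) or no robust estimation (0.060). Without 4CBA replicate 1, Map1lc3b was called higher (0.031). Both genes have processed pseudogenes whose sequence is near-identical over part of the transcript, which makes their values uncertain. Summed over the 5 genes, ATG8 transcripts went from 391 ± 7.71 to 562 ± 29.8 RPKM, 1.44-fold. Gabarapl1 went from 11.7% ± 0.48 of that sum to 22.4% ± 0.657, while Gabarap went from 65.4% ± 0.344 to 53.8% ± 2.39. The sum and the shares include the noncoding isoform of Map1lc3a and the uncertain values of Map1lc3b and Gabarapl2.

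**Figure D3:**
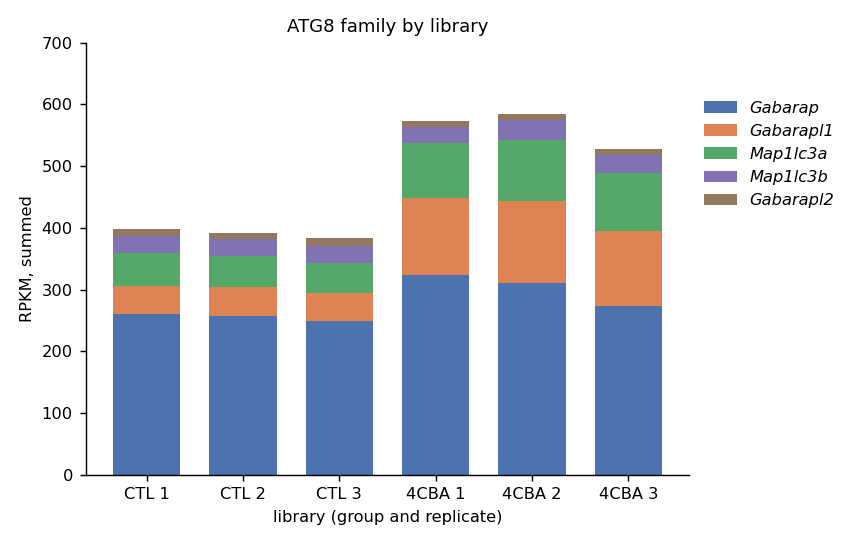
RPKM of the 5 ATG8 family genes stacked for each library. The sum is between 383 and 398 in CTL and between 528 and 585 in 4CBA, and most of the added height is Gabarapl1, Gabarap and Map1lc3a.

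The ratio of paralogs was taken within each library, where depth scaling cancels. In the CTL libraries the ratio of Ulk1 to Ulk2 was 0.828, 0.774 and 0.797, and in the 4CBA libraries 1.24, 1.25 and 1.28, so that the more abundant of the pair was Ulk2 in every CTL library and Ulk1 in every 4CBA library. The mean ratio of Gabarapl1 to Gabarap went from 0.179 to 0.418 and that of Map1lc3a to Map1lc3b from 1.88 to 3.24. The Map1lc3a to Map1lc3b ratio rests on a noncoding isoform of Map1lc3a and on the uncertain value of Map1lc3b. The ratio of Wipi1 to Wipi2 went down from 0.655 to 0.425 and that of Atg2a to Atg2b from 2.10 to 1.69. The groups did not overlap in any of the 5 pairs. Such separation was common for single genes, 40.9% of all genes tested being higher and 31.8% lower without overlap. A two-sided exact permutation test gave p = 0.1 for each, also after adjustment over the 5 pairs, and with 3 libraries per group 0.1 is the smallest p it can give.

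**Figure D4:**
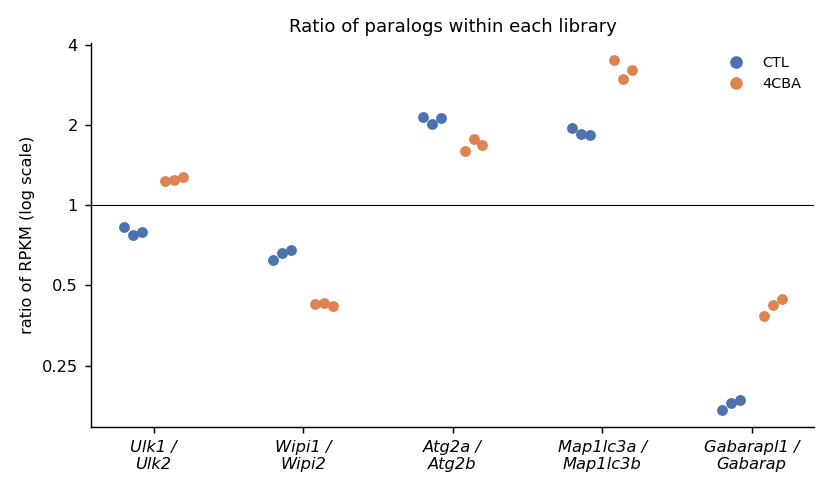
Ratio of RPKM of 5 pairs of paralogs within each library on a log axis, with 3 CTL and 3 4CBA libraries per pair. The Ulk1 to Ulk2 ratio crosses 1 between the groups, and the Gabarapl1 to Gabarap ratio shows the widest separation, 1.22 on the log2 scale.

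Of the selective receptors among the members, Optn and Calcoco1 rose. Optn, which binds ubiquitin on damaged mitochondria, had RPKM of 7.18, 7.34 and 7.66 in CTL and 11.4, 11.6 and 12.6 in 4CBA. The increase was 1.602-fold (log2 fold change 0.61, limma adjusted p = 6.7e-06). Calcoco1, known as a receptor for the endoplasmic reticulum and Golgi apparatus, rose 1.27-fold (adjusted p = 0.00021). The ubiquitin-binding receptors Nbr1 and Tax1bp1 were abundant and level, at 51.2 and 67.9 in CTL and 50.3 and 69.2 in 4CBA, with 95% intervals of the log2 difference of -0.13 to 0.083 and -0.11 to 0.16. Fundc1, a receptor in the outer mitochondrial membrane, was at 17.1 in CTL and 15.3 in 4CBA (log2 fold change -0.15, adjusted p = 0.067). Fundc1 was called lower without CTL replicate 1 (adjusted p = 0.039), without 4CBA replicate 1 (0.037), after scaling to the same median (0.0073) and in the deposited log2 values (0.0040), and Nbr1 was called lower after that scaling (0.024).

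None of Pink1, Park2 and Tbk1, which mark mitochondria for mitophagy or act beside that mark, passed the threshold (0 of 3, also at an unadjusted p under 0.05). Over all genes tested 68.4% passed in either direction, but 3 genes are few to set beside that share. Pink1 had RPKM of 29.0, 28.5 and 27.9 in CTL and 24.2, 27.0 and 29.0 in 4CBA, groups that overlap (log2 fold change -0.09, 95% interval -0.24 to 0.054, limma adjusted p = 0.24). It was called lower when libraries were scaled to the same median (log2 fold change -0.20, adjusted p = 0.020) and in the deposited log2 values (-0.15, adjusted p = 0.036). Park2, which encodes Parkin, was barely detected, at 0.282, 0.406 and 0.587 RPKM in CTL and 0.12, 0.638 and 0.704 in 4CBA. These values rest on an estimated 1.2 to 6.6 reads per library, so a fall or a modest rise in Park2 was not detectable at this depth. The 95% interval of its log2 fold change was -0.31 to 0.40 on log2(RPKM + 1), a scale that understates changes at such low values. Tbk1, the kinase that phosphorylates OPTN, was at 20.2 and 21.8 (adjusted p = 0.10). Stx17, the SNARE protein of the closed autophagosome, was at 5.74 and 5.79 (adjusted p = 0.92).

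The size of the change was set beside abundance and length. Across the 39 members the log2 fold change had a Pearson r of 0.0061 and a Spearman rho of -0.012 with the log2 mean CTL level, and across the 37 with a known exon length an r of 0.21 and a rho of 0.28 with log2 length. These values describe genes measured in the same 6 libraries, which are not independent replicates. Members rested on a median of 691 estimated reads per library, from 4.5 for Park2 to 4240 for Gabarap, and their coefficient of variation over 3 libraries had a median of 4.04% in CTL and 5.89% in 4CBA.

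Several members are known to need the transcription factors ATF4 or CHOP for their induction in mouse fibroblasts starved of amino acids. The list made of them holds members only, so Sqstm1, described below, is not among the genes counted. Of the 11 members on that list, Becn1, Atg16l1, Gabarap and Atg5 rose, Atg3, Atg7 and Gabarapl2 fell, and 4 did not pass, where 38.4% of all genes tested were higher and 30.0% lower, so both counts were near the background. The median log2 fold change was 0.10 against 0.06 for all genes tested. After scaling to the same median 2 were higher and 5 were lower, and the 3 that fell became 1 without CTL replicate 1 or without 4CBA replicate 3. Transcripts of both factors were higher. Atf4 rose 2.79-fold, from 209 ± 6.02 to 583 ± 39.2 RPKM, and Ddit3, which encodes CHOP, rose 2.63-fold, from 172 ± 15.1 to 452 ± 6.79 (SD, n = 3, limma adjusted p = 9.8e-10 and 3.0e-09). Of 10 transcription factors known to act on autophagy genes, 7 rose, 1 fell (2 without CTL replicate 3) and 2 did not pass, beside 38.4% and 30.0% of all genes. Tfe3, a regulator of lysosomal and autophagy genes, rose 1.77-fold (adjusted p = 3.9e-07), whereas its relative Tfeb was at 9.58 in CTL and 8.65 in 4CBA (adjusted p = 0.27). Foxo1 was 1.40-fold lower (adjusted p = 8.3e-05).

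Recognition sequences of these factors were searched on both strands in the promoters of the 32 members with an entry in the RefSeq table. The E-box CACGTG, the core of the TFEB motif, was found in 5 members (15.6%, against 8.09% of 27025 genes), and the longer GTCACGTG, which contains it, in 4 (12.5% against 2.55%). TGACGTCA, the cyclic AMP response element, was found only in Atg5 (3.12% against 2.03%), and TTGCATCA, a composite of C/EBP and ATF half-sites, in 0 members (1.03% of genes). That background takes genes whether or not these cells express them, and the differences in share were not tested. The windows around the longer motif, the one whose share among members was furthest above that of all genes, are shown with their flanks. They are 40 bases each, on the strand of the gene in build GRCm38.p6, with GTCACGTG or its reverse complement in capitals.
Atg7 (chr6:114670946-114670985, forward strand): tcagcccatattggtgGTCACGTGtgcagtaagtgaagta
Tbk1 (chr10:121586768-121586807, reverse strand): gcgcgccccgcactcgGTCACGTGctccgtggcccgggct
Atg14 (chr14:47568412-47568451, reverse strand): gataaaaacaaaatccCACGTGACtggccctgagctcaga
Atg3, first copy (chr16:45158717-45158756, forward strand): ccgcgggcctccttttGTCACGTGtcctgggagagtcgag
Atg3, second copy (chr16:45158740-45158779, forward strand): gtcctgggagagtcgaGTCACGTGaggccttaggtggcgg
The copies in Atg3 start 96 and 73 bases before the start site. The motif in Atg7 starts 134 bases before the start site of its entry, but that site lies 27969 bases inside the gene, downstream of the start of the transcript behind its RPKM, so this window is not the promoter of that transcript. For 30 of the 32 members an entry started within 1000 bases of the matched transcript, the exceptions being Atg7 and Atg4c. Of these 4 genes Atg14 rose, Atg7 and Atg3 fell and Tbk1 did not pass. The promoters of Gabarapl1, Ulk1, Uvrag and Atg101 printed above hold none of the 4 motifs.

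The steps that follow the core machinery were compared through further lists of genes that are not members, to be read against the 38.4% of all genes that were higher, the 30.0% that were lower and their median of 0.06. Counts in these lists do not separate genes that promote autophagy from genes that restrain it. For fusion of autophagosomes with lysosomes, 14 of 17 genes rose, 1 fell and 2 did not pass (all genes, 38.4% and 30.0%), with a median log2 fold change of 0.39. Epg5, a tethering factor for this fusion, rose 3.33-fold, from 2.86 ± 0.132 to 9.52 ± 0.729 RPKM, and Arl8b, a lysosomal GTPase, rose 1.70-fold (limma adjusted p = 1.9e-08 and 4.0e-07). The exception was Rilp, an adaptor that links RAB7 on lysosomes to the dynein motor, which was 4.50-fold lower, from 9.68 ± 1.75 to 2.15 ± 0.408 (adjusted p = 5.5e-07). Among 23 other regulators and phagophore proteins, 16 rose, 3 fell (1 without CTL replicate 1) and 4 did not pass (all genes, 38.4% and 30.0%), with a median of 0.33. Vmp1, an endoplasmic reticulum scramblase needed for phagophore formation, rose 1.91-fold (adjusted p = 5.0e-08). Bcl2, whose protein binds BECN1, rose from 0.259 ± 0.0472 to 1.69 ± 0.195 RPKM (adjusted p = 1.8e-06). Dapk1, a kinase that acts on BECN1, was 1.45-fold lower, and the GTPase Rab1b was 1.14-fold lower (adjusted p = 3.7e-05 and 0.012).

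Among 18 further selective receptors that were tested, of 19 listed, 9 rose, 5 fell and 4 did not pass, with a median log2 fold change of 0.13. Of all genes 38.4% were higher and 30.0% lower, and the share that fell was close to that background. The largest increase was in Stbd1, a receptor for glycogen, from 22.4 ± 0.906 to 259 ± 7.31 RPKM, 11.6-fold. Sqstm1, which encodes the ubiquitin-binding receptor p62, had 182, 177 and 174 in CTL and 697, 689 and 680 in 4CBA, a 3.88-fold increase (limma adjusted p = 2.1e-11). The largest decreases were in receptors of the mitochondrion. Bnip3, a receptor of the outer membrane, fell from 277 ± 1.59 to 174 ± 25.2 RPKM (1.59-fold, adjusted p = 7.1e-05), and Phb2, a receptor of the inner membrane, was 1.52-fold lower (adjusted p = 6.0e-06).

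The list made for the PINK1 and Parkin pathway was the one with more decreases than increases. Besides regulators it holds subunits of the outer membrane translocase, the VDAC genes and proteins that are degraded after Parkin acts. Of 23 genes, 14 fell, 7 rose and 2 did not pass, beside 30.0% lower and 38.4% higher over all genes, with a median log2 fold change of -0.23. The genes that fell include all 5 listed translocase subunits, Vdac1 and Vdac2, whereas Vdac3 rose. Usp30, Usp8 and Fbxo7 rose too, while Usp15, March5, Mul1, Parl and Park7 fell. The counts and the median do not separate genes that promote mitophagy from genes that oppose it, so they give no direction for the pathway. Sqstm1 is on this list as well as on that of the receptors and is counted in both. Tomm40, the channel of the outer membrane translocase, was 1.72-fold lower (limma adjusted p = 3.4e-07). The paralogs Rhot1 and Rhot2, mitochondrial GTPases that link the organelle to motor proteins and are degraded after Parkin acts, moved apart. Rhot1 rose from 24.7 ± 0.853 to 69.9 ± 3.33 RPKM (2.83-fold, adjusted p = 7.4e-10), and Rhot2 fell from 28.6 ± 1.1 to 16.8 ± 1.28 (1.71-fold, adjusted p = 1.0e-06).

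**Figure D5:**
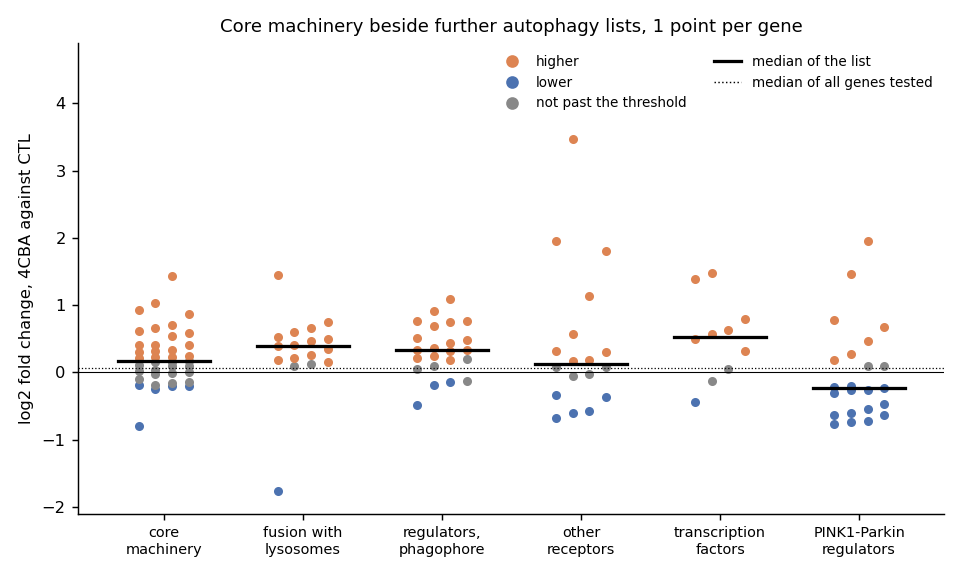
Log2 fold change, 4CBA against CTL, of the 39 core genes and of 5 further lists, 1 point per gene, with the median of each list as a bar and the median of all genes tested as a dotted line. Medians run from -0.23 for the list of the PINK1 and Parkin pathway to 0.53 for the transcription factors.

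Markers of the cells moved along with these changes. Of 9 brown adipocyte markers tested, of 10 listed, 8 fell and Elovl3 rose. Ucp1 was 16.2-fold lower (34.6 ± 3.75 and 2.13 ± 0.231 RPKM), Cox7a1 was 8.62-fold, Adipoq 6.47-fold and Cidea 5.66-fold lower, and Fabp4, which makes up most of the list's sum, 1.78-fold lower (8620 ± 284.6 and 4846 ± 595). The markers' summed level was 10470 to 10930 RPKM in CTL and 4606 to 5796 in 4CBA, and that of 5 preadipocyte markers was 68.2 to 78.0 and 27.2 to 29.0. Of these preadipocyte markers 4 fell, while Ly6a did not pass the threshold, with mean RPKM of 16.9 in CTL and 15.7 in 4CBA. In bulk libraries, fewer cells of a type and less RNA per cell cannot be told apart, and the part of these shifts in the changes of autophagy genes was not tested. Of 5 macrophage markers, Adgre1, Ptprc and Itgam were at 0 in all libraries and Csf1r was below 0.1 RPKM, although Cd68, a lysosomal membrane protein, went from 2.28 ± 0.637 to 49.2 ± 2.85, and the list's summed level was 1.95 to 3.01 in CTL and 45.9 to 51.0 in 4CBA. The sum of 4 endothelial markers stayed under 0.5 RPKM, with Cdh5 at 0. Of 5 muscle markers, Myog, Myh1 and Myod1 were at 0, and the summed level was 0.215 to 0.331 in CTL and 4.00 to 5.36 in 4CBA, mostly Acta1. Estimated depth was 9440000 to 12260000 reads per library. The correlation of log2 values across genes was 0.992 to 0.993 for libraries of the same group and 0.911 to 0.917 for libraries of different groups.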

How the data were processed

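The authors mapped reads of 3 CTL and 3 4CBA messenger RNA libraries with STAR to mm10. Exon reads were counted with HOMER on 1 RefSeq isoform of each gene, and the result was deposited as RPKM. For versions and the strand setting, nothing is given in the sources used here. The header of that table names more libraries than its 6 columns. A second deposited table holds log2 values, whose transform is not stated, and the authors' DESeq2 fold changes and p-values, which were not used. The isoform kept differs between the tables for 3782 of 24537 genes, 8 of them members.

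Groups and replicate numbers came from the labels, which state a stranded kit and 500 ng of RNA. The 12659 genes that reached 0.5 RPKM in 3 or more libraries were tested on log2(RPKM + 1), a scale that understates changes of low genes, with limma 3.58.1 (R 4.3.3, trend and robust options) and Benjamini-Hochberg adjustment over all of them. Folds are ratios of mean RPKM. The procedure was tested on simulated data. Depth was estimated from single-read steps of RPKM under 0.25 with GENCODE vM21 transcript lengths. In each library 73.0% to 74.5% of these low values lay within 0.1 read of a whole number, and reads were therefore not recovered as counts. Exon overlaps and similar transcripts (at least 95% identity over at least 200 bases) come from the same annotation. Other steps used numpy 2.4.6 and pandas 2.3.3 under Python 3.11.15.

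Members and lists were chosen with earlier results of these data known. Every member is named. In each role the member with the largest called change per direction is given in every library, and from each further list the 2 largest called changes per direction where the mean of the higher group was 1 RPKM or more, plus Sqstm1, Tfeb, Tfe3, Atf4, Ddit3 and Ucp1. Some other genes of these lists are named to describe what a list holds or were picked after their values were seen. Alternatives were a pseudocount of 0.1, no filter, no robust estimation, the authors' log2 values, scaling to the same median, a replicate block and each library left out. A test against a 1.2-fold change was chosen after seeing the data.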

Additional observations from a re-analysis of the deposited data

How the results depend on the processing

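Of the 39 members, 12 kept their call and sign under every alternative run and 27 did not under at least 1. Gabarapl1, Ulk1, Uvrag, Map1lc3a, Wipi2, Atg9a, Optn, Atg13, Atg14, Ulk2 and Atg101 passed in all of them, and Becn1, Atg2b, Atg4c, Atg7, Atg16l1 and Calcoco1 lost their call in the test against a 1.2-fold change and under no other alternative. Against a 1.2-fold change, 2713 genes were higher and 2239 lower, of members 10 and 1, of the further receptors 4 and 3, of the other regulators 9 and 1, of the fusion genes 8 higher, of the PINK1 and Parkin regulators 8 lower, and of the members that need ATF4 or CHOP 0 and 0. After scaling to the same median 9 members were lower, those that need ATF4 or CHOP were 2 higher and 5 lower, and the members' median log2 fold change was 0.066. The same scaling left 7 of the further receptors, 12 of the other regulators, 10 of the fusion genes and 5 of the PINK1 and Parkin list higher. The signs of members that had not passed turned under scaling, without a call, for Wipi1 (-0.0069), Map1lc3b (-0.0103), Tax1bp1 (-0.082), Park2 (-0.065), Tbk1 (-0.0014) and Stx17 (-0.098), in the authors' log2 values for Tax1bp1 (-0.0396) and Stx17 (-0.0503), and with a pseudocount of 0.1 for Park2 (-0.0082). With a pseudocount of 1 the log2 ratio of Atg2a to Atg2b differed by -0.25. Leaving out 1 library at a time gave 3 to 5 lower members, 1 to 3 lower regulators, 1 to 2 lower transcription factors and 1 to 3 lower members that need ATF4 or CHOP. It gave log2 fold changes of -0.0312 to 0.0321 for Pik3c3, -0.0202 to 0.0794 for Tax1bp1, -0.0677 to 0.235 for Park2 and -0.0348 to 0.0438 for Stx17. The cause of these differences was not tested.

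Same-numbered libraries did not deviate together (r = -0.067, -0.033 and -0.027), so the numbers were not taken as pairs. With the replicate block 18 members were higher and 4 lower, and Atg4d (adjusted p = 0.0504) and Gabarapl2 (0.0525) lost their calls. Counting error weighs most on Park2, which has the fewest reads of the members with an estimate.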

Other observations

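Within the further lists, 3 groups were picked after their values were seen and are given as descriptions. The 6 subunits of the HOPS complex, which tethers autophagosomes and late endosomes to lysosomes, were all higher with 4CBA (38.4% of all genes tested were), with a median log2 fold change of 0.38 and a range from 0.18 for Vps41 to 0.60 for Vps11. With libraries scaled to the same median, 10 genes of the fusion list, which holds this complex, were higher instead of 14. The 5 subunits of the TOM complex that were listed, the import gate of the outer mitochondrial membrane on which PINK1 is stabilized, were all lower (30.0% of all genes were), from -0.21 for Tomm70a to -0.76 for Tomm40, with a median of -0.60.

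Of 6 receptors for the endoplasmic reticulum in the list, 5 were higher, beside 38.4% of all genes, and Ccpg1 did not pass the threshold. Tex264 went from 62.9 ± 1.01 to 222 ± 10.5 RPKM (3.53-fold, limma adjusted p = 8.6e-11, n = 3), with Fam134b (1.69-fold), Rtn3 (1.25-fold), Sec62 and Atl3 also higher. The changes of Sec62 and Atl3 were small (log2 fold change 0.18 and 0.17). With libraries scaled to the same median, 7 genes of the whole receptor list were higher instead of 9. Tollip, a ubiquitin-binding receptor, went from 15.8 ± 0.641 to 36.0 ± 0.913 RPKM, whereas Bnip3l, the relative of Bnip3, was at 35.6 ± 1.39 in CTL and 37.7 ± 1.32 in 4CBA (adjusted p = 0.21).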
